A study of Sus scrofa with 20 samples.

Results

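The miRNAs described here are the mature arms of 2 related hairpins, miR-28 and miR-151, in the blood of pigs before and after a brain hemorrhage. They were chosen by name: ssc-miR-28-5p, ssc-miR-28-3p, ssc-miR-151-5p and ssc-miR-151-3p in the counts against pig miRNAs, and hsa-miR-28-5p, hsa-miR-28-3p, the joined entry hsa-miR-151a-5p@ and hsa-miR-151a-3p in the counts against human miRNAs. The prefixes ssc (pig) and hsa (human) are left out below where the table is named. These are 4 of 284 entries in the pig-reference table and 4 of 608 in the human-reference table, and all 8 passed the filter on low counts. The set was proposed with the change of miR-151 after hemorrhage already known. The comparison before and after hemorrhage is therefore given as a description of these entries, with no test of its own. Where an entry is said to have fallen, it passed an adjusted p of 0.05 in a fit over all miRNAs of its table.

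Small RNA was sequenced from PBMCs, the mononuclear white cells of blood (mainly lymphocytes, with monocytes) recovered on a density gradient. The animals were female American Yorkshire pigs aged 80-90 days and weighing 36-41 kg, with no genetic modification or drug named in the labels. The 10 Control libraries came from untreated animals before intracerebral hemorrhage (ICH) and the 10 ICH libraries from blood taken 6 h after it. The bleed was produced through a burr hole, by pressure-controlled injection of autologous blood into white matter of the frontal lobe. Replicate numbers 1 to 10 occur in both groups and were used as pairs. No sham-operated group was analysed here, so the effects of the surgery and of the hemorrhage cannot be told apart. The time elapsed between the draws and the earlier drawing of blood cannot be separated from them either. The libraries held 896960 to 2103685 pig-reference reads and 919313 to 2177834 human-reference reads. The 2 tables count largely the same reads and are not independent of each other.

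A miRNA hairpin is cut into a duplex whose 2 strands, the 5p and 3p arms, can each be loaded into an Argonaute protein and guide it to target mRNAs. Targets are chosen mainly through the seed near the 5' end of the loaded arm. The miR-28 and miR-151 hairpins both derive from an ancient LINE-2 transposable element, and their 5p arms share a core stretch but begin at different positions in it. The grouping of these miRNAs as a seed family was not checked here, because no mature sequences were used. miR-28 is expressed in germinal centre B cells and restrains their proliferation. miR-151 is carried by the gene of focal adhesion kinase and has been studied mainly in tumour cell migration.

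Both pig genes lie inside a protein-coding gene in the RefSeq annotation of Sscrofa11.1. MIR28 is on chromosome 13 at 126282167 to 126282252, within the interval of LPP (125782373 to 126478927), which encodes a LIM-domain protein of cell adhesions. MIR151 is on chromosome 4 at 2849041 to 2849120, within the interval of PTK2 (2656606 to 2896060), which encodes focal adhesion kinase. Exons are not listed in that table, so exonic or intronic position was not assigned. mRNA levels of LPP and PTK2 were not analysed here. A further relative, miR-708, which shares the seed of miR-28-5p, lies on chromosome 9 within TENM4. miR-708-5p had 2 reads in all 20 libraries, 1 in Control and 1 in ICH, under the limit of 3 counts per library. At these depths that limit is 1.43 to 3.34 CPM (counts scaled to a library total of 1e6). No entry named miR-151b was found in either table.

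In the pig-reference counts, both arms of miR-151 fell 6 h after ICH and neither arm of miR-28 passed the threshold. miR-151-5p fell to 0.739 of its level before ICH and miR-151-3p to 0.829. miR-28-5p was at 0.932 and miR-28-3p at 1.03 of the level before ICH. Thus 2 of 4 entries fell and 0 rose (edgeR quasi-likelihood test with the replicate number as a block, Benjamini-Hochberg adjustment over 179 miRNAs). At an unadjusted p under 0.05 the count of entries that rose was also 0, and DESeq2 and limma voom with the block called 0 rises as well. Of all 179 miRNAs tested, 10.1% fell and 11.7% rose by the same rule. The entries were chosen with this comparison in view, so the count of 2 of 4 is not evidence about the group as a whole.

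miR-151-5p was the scarcest arm and had the largest change. Its level was lowest at 58.7, had a median of 107.2 and was highest at 127.0 CPM (here with library sizes scaled by TMM) in Control. In ICH the lowest, median and highest were 49.4, 82.3 and 89.5 CPM. Every ICH library lay below the Control median, and 2 of the 10 lay below the lowest Control library, so the ranges overlapped. The mean went from 102.6 ± 19.9 to 75.4 ± 15.2 CPM (SD, n = 10 each). The log2 fold change was -0.44 ± 0.11 (SE). Within replicate numbers it was lower after ICH in 10 of 10 pairs, with changes of -1.24 to -0.14 on the log2 scale. The largest of these was in number 1, from 127.0 to 53.0 CPM, and the smallest in number 7, from 87.5 to 79.4 CPM. Without number 1 the log2 fold change was -0.32, and it stayed past the threshold. The entry rested on 52 to 226 reads per library, which gives a counting error of 13.9% at the lowest count.

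miR-151-3p, the abundant arm, fell less. In Control the lowest, median and highest levels were 885.3, 1236 and 1659 CPM. In ICH they were 771.5, 1059 and 1343 CPM. No ICH library exceeded the highest Control library, and 3 of 10 lay below the lowest one. The mean went from 1260 ± 289 to 1036 ± 190 CPM (SD, n = 10 each), a log2 fold change of -0.27 ± 0.089 (SE). It was lower after ICH in 9 of 10 pairs. Number 7 was the exception, at 885.3 CPM before and 965.8 CPM after, and it was also the pair with the smallest change of miR-151-5p. Both points depend on TMM scaling. With CPM from library totals, miR-151-3p of number 7 fell from 1028 to 992 and that of number 1 rose from 1058 to 1158. The smallest change of miR-151-5p was then in number 6, from 108.1 to 101.3 CPM. The largest fall with TMM scaling was in number 6, from 1659 to 1111 CPM. With library totals it was in number 8, from 1724 to 888 CPM. Leaving out any one of numbers 2, 3, 4, 5, 6, 8, 9 or 10 moved miR-151-3p back over the threshold, with log2 fold changes of -0.28 to -0.23 in those fits.

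**Figure D1:**
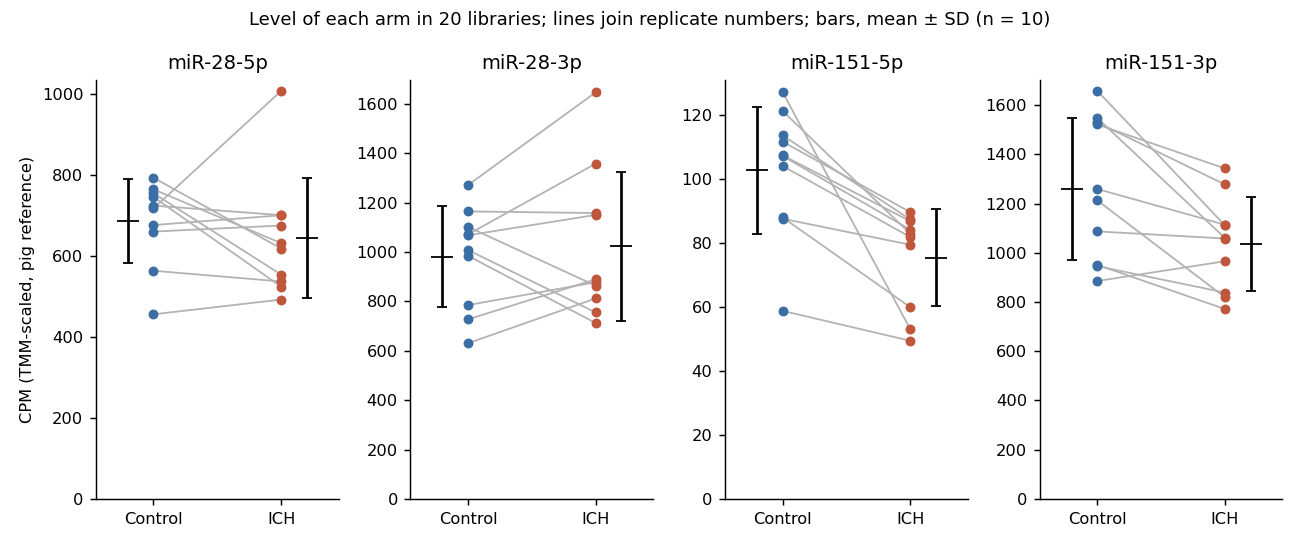
CPM (TMM-scaled, pig reference, axes from 0) of each arm in the 10 Control and 10 ICH libraries; grey lines join the same replicate number and black bars give mean ± SD. All 10 lines of miR-151-5p and 9 of 10 of miR-151-3p slope down, whereas 6 of 10 slope down for miR-28-5p and 4 of 10 for miR-28-3p.

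The arms of miR-28 moved in both directions among the pairs. miR-28-5p had a lowest, median and highest level of 456.5, 721.7 and 794.3 CPM in Control. In ICH these were 493.0, 625.8 and 1009 CPM. The groups overlapped throughout, with 9 ICH libraries below the Control median and 1, number 6, above the highest Control library. Mean levels were 686.5 ± 104 CPM before and 644.9 ± 148 CPM after ICH (SD, n = 10 each), with a log2 fold change of -0.10 ± 0.099 (SE). It was lower in 6 of 10 pairs, with changes from -0.51 in number 4 to 0.49 in number 6. The pairs that were lower depend on the scaling. With CPM from library totals, numbers 5, 8 and 10 turned from higher to lower (number 8 went from 754 to 587 CPM). Number 9 turned from lower to higher (604.9 to 614.9 CPM). In number 6 miR-28-5p went from 718.2 to 1009 CPM, the same pair in which TMM-scaled miR-151-3p had its largest fall. With library totals the largest fall of miR-151-3p was in number 8. Without number 6 the log2 fold change was -0.17 and without number 4 it was -0.01.

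miR-28-3p, the more abundant arm of its hairpin, was spread most widely after ICH. In Control the lowest, median and highest levels were 630.3, 1038 and 1271 CPM. In ICH they were 712.0, 883.5 and 1647 CPM, so the ICH median was lower while 2 ICH libraries exceeded every Control library. The means were 981.0 ± 204 and 1022 ± 301 CPM (SD, n = 10 each), with a log2 fold change of 0.04 ± 0.10 (SE). It was higher in 6 of 10 pairs, with changes from -0.47 in number 4 to 0.37 in number 1. Without number 4 the log2 fold change was 0.14, without number 2 or 3 it was 0.09 and 0.10, and without number 7, 9, 10 or 5 it was 0.0046, 0.02, 0.01 and 0.03. In number 1 miR-28-3p went from 1271 to 1647 CPM while miR-28-5p went from 765.6 to 632.4 CPM. Numbers 2, 3 and 4 had lower values of all 4 arms after ICH.

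Ranked by mean level, miR-151-3p was the most abundant of the 4 arms and miR-151-5p the scarcest. Before ICH the means of miR-151-3p and miR-28-3p, at 1260 and 981.0 CPM, differed by less than the SD of miR-151-3p (289 CPM). miR-28-5p, at 686.5 CPM, differed from miR-28-3p by more than either SD, although their ranges overlapped. miR-151-5p, at 102.6 CPM, lay below all of them. The highest miR-151-5p library (127.0 CPM) was under the lowest miR-28-5p library (456.5 CPM). Reads per miRNA also depend on how well each sequence is captured in the library, so these orders are of reads. Together the 4 arms took 0.308% ± 0.0509 of all pig-reference reads before ICH and 0.274% ± 0.0564 after it (SD, n = 10 each), and this share was lower after ICH in 7 of 10 pairs.

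Ratios within a library do not depend on the scaling between libraries. The 3p arm exceeded the 5p arm in both hairpins before ICH, by 12.1-fold for miR-151 and 1.41-fold for miR-28 (geometric means of the 10 Control libraries). The log2 ratio of 5p to 3p for miR-151 was -3.60 ± 0.31 before ICH and -3.77 ± 0.31 after it (SD, n = 10 each). It changed by -0.17 ± 0.41 (SD) within pairs and was lower in 7 of 10. For miR-28 it was -0.50 ± 0.21 in Control and -0.64 ± 0.36 in ICH, a change of -0.14 ± 0.29 (SD), also lower in 7 of 10. In both hairpins the mean change was smaller than the spread between pairs. Replicate number 1 had the largest change for miR-151, at -1.21.

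The hairpins were then set against each other within each library. The log2 ratio of miR-151-5p to miR-28-5p was -2.74 ± 0.18 before ICH and -3.08 ± 0.30 after it (SD, n = 10 each). It was lower after ICH in 9 of 10 pairs, with a mean change of -0.34 ± 0.33 (SD), and 4 ICH libraries lay below the lowest Control library. For the 3p arms the log2 ratio of miR-151 to miR-28 was 0.36 ± 0.35 in Control and 0.05 ± 0.43 in ICH. It was lower in 8 of 10 pairs, with a mean change of -0.31 ± 0.30 (SD). On these ratios miR-151 reads were 0.791 (5p) and 0.807 (3p) of their earlier level relative to miR-28 reads. The difference between the hairpins comes from the comparison the entries were chosen in and was not tested.

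**Figure D2:**
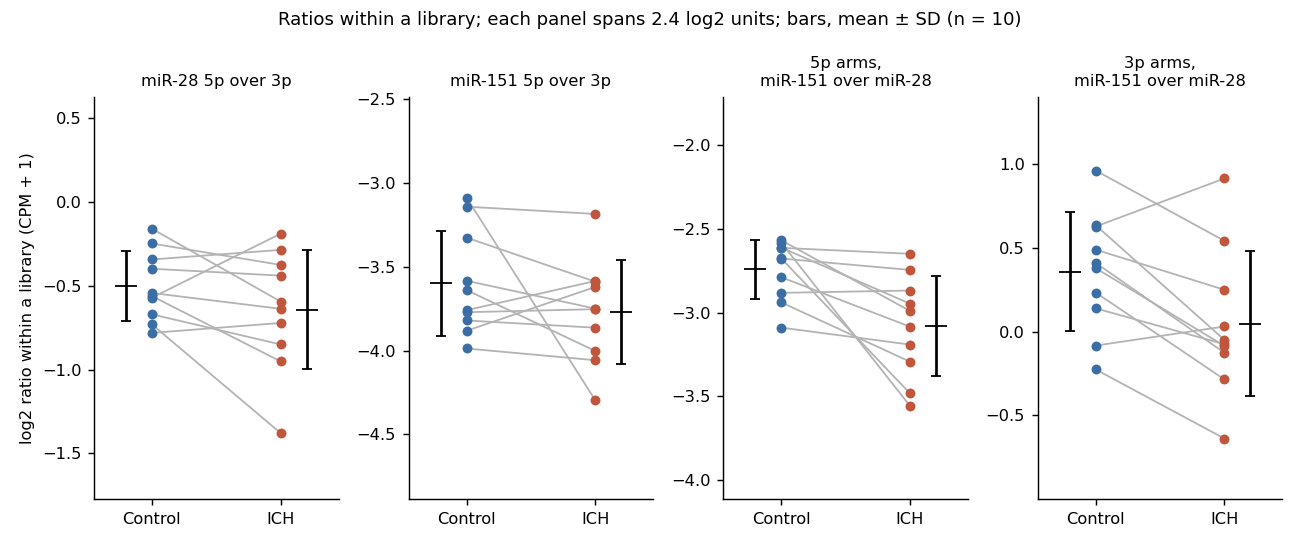
Log2 ratios within each library (CPM from library totals plus 1, pig reference) for the arms of each hairpin and for miR-151 over miR-28; each panel spans 2.4 log2 units, grey lines join replicate numbers and bars give mean ± SD (n = 10). The ratio of miR-151 to miR-28 was lower after ICH in 9 of 10 pairs for the 5p arms and in 8 of 10 for the 3p arms, and both groups overlapped in every panel.

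The human-reference counts gave the same order of changes. The joined entry miR-151a-5p@ fell, with a log2 fold change of -0.38 ± 0.11 (SE), and was lower in 10 of 10 pairs. Its mean was 100.4 ± 18.8 CPM before and 76.3 ± 12.5 CPM after ICH (SD, n = 10 each). What was joined in it is not given in the sources used here. For miR-151a-3p the log2 fold change was -0.20 ± 0.092, which did not pass, although it was lower in 8 of 10 pairs. miR-28-5p and miR-28-3p had log2 fold changes of -0.04 ± 0.10 and 0.11 ± 0.11. They were lower in 4 and 3 of 10 pairs, whereas pig-reference miR-28-5p was lower in 6 of 10. Thus 1 of 4 human-reference entries fell and 0 rose, where 6.12% of the 245 miRNAs tested fell and 13.1% rose. The count of rises was also 0 at an unadjusted p under 0.05 and with DESeq2 or limma voom with the block.

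The distance of each arm from the typical miRNA was nearly the same in both tables. The median log2 fold change of all miRNAs was -0.04 in the pig-reference counts and 0.03 in the human-reference counts. Relative to that median, miR-151-3p was at -0.23 in both tables, on different sides of the threshold. miR-151-5p was at -0.39 in the pig-reference counts and its joined entry at -0.41 in the human-reference counts. Over 4 scalings between libraries (TMM, library totals, DESeq2 size factors and upper quartile) the pig-reference miR-151-5p stayed between -0.40 and -0.39 of the median, while its log2 fold change itself ran from -0.48 to -0.32. A scaling shifts all miRNAs by nearly the same amount, so the steady distance follows from the arithmetic and is no support for the change. Upper-quartile scaling moved the median of all pig-reference miRNAs by 0.12. Under it the log2 fold change of miR-28-5p was 0.01, and both arms of miR-151 lost their calls, with values of -0.32 and -0.15. In the human-reference counts library totals and upper-quartile scaling moved the median by -0.11 and -0.12. Pig-reference miR-28-3p was at -0.01 under library totals, so neither arm of miR-28 has a direction that holds under every scaling in the pig-reference counts. In the human-reference counts miR-28-5p was below 0 under all 4 scalings (-0.16 to -0.04), and miR-28-3p ran from -0.01 to 0.11.

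Without the block 0 of 4 pig-reference entries passed (edgeR, where 0% of 179 miRNAs passed and 35 had an unadjusted p under 0.05). miR-151-5p was the 1 entry with an unadjusted p under 0.05 in that fit, and DESeq2 without the block called 1 of 4. The log2 fold changes without the block were -0.44 ± 0.14 for miR-151-5p and -0.28 ± 0.14 for miR-151-3p (SE). In the human-reference counts without the block 0 of 4 entries passed, where 3.67% of 245 miRNAs did, and 1 of 4 had an unadjusted p under 0.05.

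**Figure D3:**
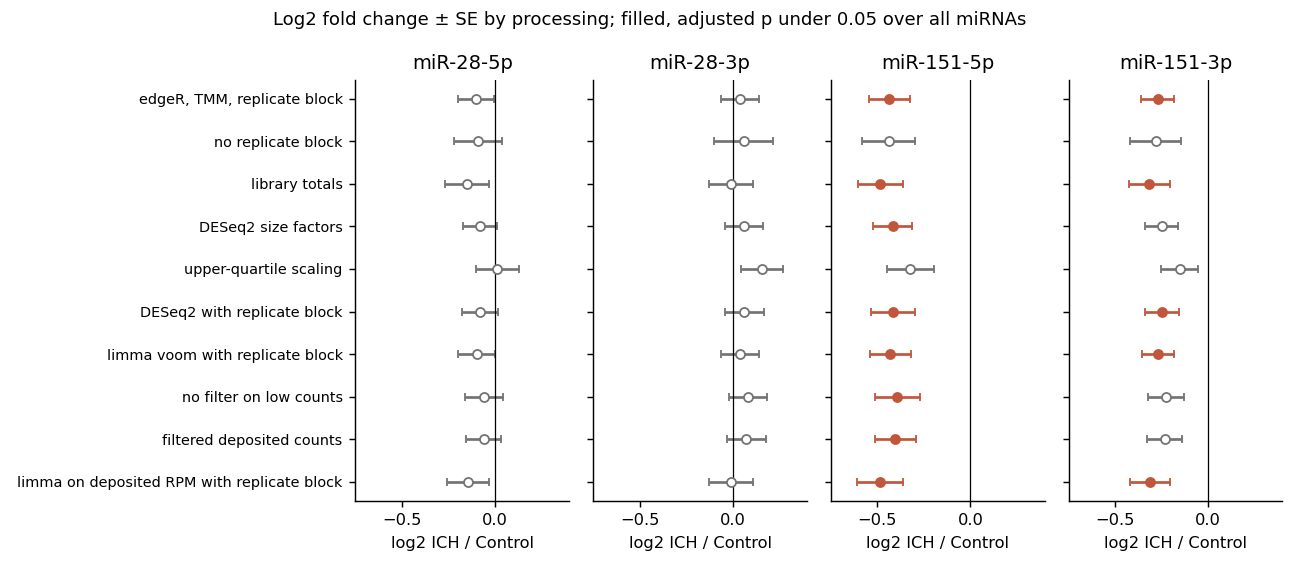
Log2 fold change (ICH over Control) ± SE of each pig-reference arm under 10 ways of processing; filled points had an adjusted p under 0.05 over all miRNAs tested. miR-151-5p was below 0 in all 10 and past the threshold in 8, miR-151-3p was below 0 in all 10 and past it in 5, and the miR-28 arms lay near 0.

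How reads were assigned differed little for 3 of the arms. Against the human reference miR-28-3p gained 0.262% and miR-151-3p 0.139% more reads over the 20 libraries, and miR-28-5p 1.26%. The joined entry miR-151a-5p@ held 3.11% more reads than pig miR-151-5p, with 1 to 11 extra reads per library. The filter applied before deposit removed 6.02% of miR-151-5p reads and 7.86% of miR-151a-5p@ reads. It removed 2.17% of miR-28-5p, 2.06% of miR-28-3p and 1.87% of miR-151-3p reads in the pig-reference table. Among 140 pig miRNAs with at least 1000 reads the median was 3.58%, and 37 lost a larger share than miR-151-5p. The share of miR-151-5p removed was 5.95% ± 1.75 before ICH and 5.99% ± 2.08 after it (SD, n = 10 each). Because the 5p arms are near relatives, their reads were also summed. The log2 fold change of the sum, -0.14 ± 0.097, did not pass; miR-28-5p supplied most of its reads.

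Variation between animals before ICH does not involve the change after it. In the 10 Control libraries the log2 CPM of miR-28-5p correlated with that of miR-28-3p (Pearson's r = 0.77, permutation p = 0.0108, adjusted p = 0.0338 over the 6 pairs of arms; Spearman's rho = 0.61, permutation p = 0.0676, adjusted p = 0.193). It also correlated with miR-151-5p (r = 0.84, permutation p = 0.0113, adjusted p = 0.0338; rho = 0.47, permutation p = 0.178, adjusted p = 0.267). With TMM scaling both relations rested on Control numbers 7 and 10, the libraries farthest from the median of miR-28-5p. Without these 2, r was 0.43 and -0.02. With library totals in place of TMM, r was 0.78 between the arms of miR-28 and 0.84 without numbers 3 and 10, and r between the 5p arms was 0.85 and 0.55 without them. With library totals rho was 0.88 between the arms of miR-28 (permutation p = 0.00158, adjusted p = 0.00948). Between the 5p arms it was 0.81 (permutation p = 0.00774, adjusted p = 0.0232). The arms of miR-151 had r = 0.55 (permutation p = 0.0879, adjusted p = 0.132) and rho = 0.59 (permutation p = 0.0811, adjusted p = 0.193), and r = 0.14 without numbers 7 and 10. All arms of a library share its scaling.

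For the other 3 pairs of arms in Control, r was 0.39 for miR-28-5p with miR-151-3p, 0.64 for miR-28-3p with miR-151-5p and 0.43 for miR-28-3p with miR-151-3p. Their rho values were 0.03, 0.56 and 0.39. The permutation p values of r were 0.275, 0.0457 and 0.217, with adjusted p of 0.275, 0.0915 and 0.26, and those of rho were 0.946, 0.0966 and 0.264, with adjusted p of 0.946, 0.193 and 0.316. Without numbers 7 and 10, r was -0.78, 0.19 and -0.31. In the 10 ICH libraries the 6 values of r ran from -0.21, between miR-28-3p and miR-151-5p, to 0.53, between the 5p arms. The smallest adjusted permutation p among them was 0.372 for r and 0.201 for rho.

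**Figure D4:**
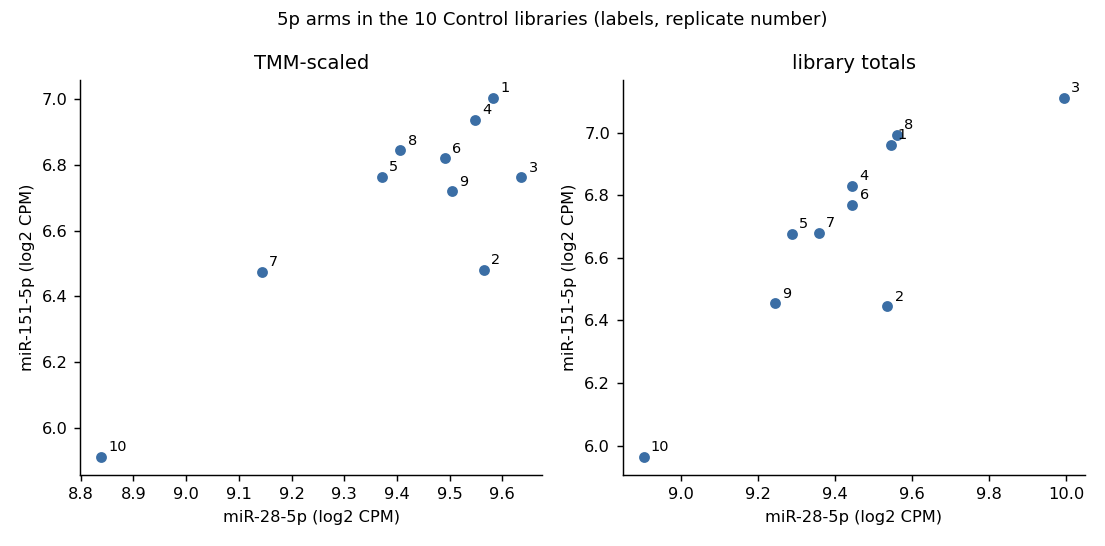
Log2 CPM of miR-151-5p against miR-28-5p in the 10 Control libraries, with TMM scaling on the left (r = 0.84) and library totals plus 1 on the right (r = 0.85); labels are replicate numbers. Number 10 is lowest on both axes in both panels.

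The level before ICH was compared with the level after it in the same replicate number, a comparison chosen after the values were seen. miR-151-3p had r = 0.72 (permutation p = 0.0212, adjusted p = 0.085 over 4 arms), rho = 0.66 (permutation p = 0.0444, adjusted p = 0.134) and r = 0.80 without numbers 6 and 7. miR-28-3p had r = 0.58 (permutation p = 0.0777, adjusted p = 0.131), rho = 0.61 (permutation p = 0.0672, adjusted p = 0.134) and r = 0.63 without numbers 7 and 10. The 5p arms had r of 0.39 for miR-28 and 0.53 for miR-151, with permutation p of 0.249 and 0.0979 and adjusted p of 0.249 and 0.131. Their rho values were 0.14 and 0.42, with permutation p of 0.706 and 0.232 and adjusted p of 0.706 and 0.309. Without numbers 7 and 10 these r values were -0.38 and 0.05. None of the 4 relations passed after adjustment.

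The miRNAs most like each arm were taken as the 3 with the highest Pearson's r over the 10 Control libraries among 172 other pig miRNAs averaging at least 10 CPM. For miR-28-5p these were miR-95 (r = 0.90), miR-103 (r = 0.82) and miR-199a-3p@ (r = 0.79). For miR-28-3p they were miR-103 (r = 0.82), let-7i (r = 0.80) and miR-146a-5p (r = 0.79). For miR-151-5p they were miR-95 (r = 0.79), miR-34c (r = 0.71) and miR-146a-5p (r = 0.69). For miR-151-3p they were miR-140-3p (r = 0.82), miR-155-5p (r = 0.79) and miR-146b (r = 0.78). miR-95 headed the list of both 5p arms, with rho of 0.68 for miR-28-5p and 0.59 for miR-151-5p. Both 5p arms were lowest in Control number 10, so these 2 likenesses are not separate observations. The highest of 172 values of r over 10 libraries are high partly through selection, and none was tested. The miR-95 hairpin is also known to derive from a LINE-2 element, and a link of that origin to the likeness was not tested. In the ICH libraries miR-95 had r = 0.09 with miR-28-5p and 0.42 with miR-151-5p, and over the 12 likenesses r in ICH ran from 0.09 to 0.62. miR-95 and miR-34c fell after ICH, with log2 fold changes of -0.64 ± 0.16 and -0.47 ± 0.13 (SE), and the other 7 miRNAs did not pass.

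Lists of miRNAs linked to the cell types of blood were followed in the same pig-reference fit. In bulk samples, fewer cells of a type and less miRNA per cell cannot be told apart. Over all pig-reference miRNAs tested 10.1% fell and 11.7% rose, the background of the list counts that follow. Among 7 tested lymphocyte miRNAs 4 fell and 0 rose, with a median log2 fold change of -0.40 against -0.04 over all miRNAs. miR-29a fell by 0.49, miR-150, abundant in mature lymphocytes, by 0.45 and miR-181a, which tunes T cell receptor signalling, by 0.39 on the log2 scale. The other that fell was miR-29b, at -0.43 and of the same family as miR-29a. Those not past the threshold were miR-342 at -0.40, miR-29c at -0.25 and miR-155-5p at 0.11, which went the other way. The list's summed level was 21020.5 to 40839 CPM in Control and 17204 to 33724 CPM in ICH, and was higher in 1 of 10 pairs. The log2 fold change of miR-151-5p in the same fit was -0.44. The part of lymphocyte miRNAs in the fall of miR-151 was not tested.

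In the platelet list 1 of 8 tested members rose and 0 fell, a share of rises near the background, with a median of -0.07. The member that rose was miR-126-3p, a miRNA of endothelial cells and platelets, at 0.50 ± 0.098 on the log2 scale (SE). The others were miR-126-5p at 0.32 ± 0.22, miR-199a-3p@ at 0.22 ± 0.22 and miR-191 at -0.05 ± 0.082. miR-340 was at -0.09 ± 0.12, miR-222 at -0.16 ± 0.11, miR-221-3p at -0.16 ± 0.097 and miR-221-5p at -0.18 ± 0.12. The summed level was 45628 to 66477 CPM in Control and 45763 to 59731 CPM in ICH, higher in 3 of 10 pairs. In the erythroid list 1 of 3 rose, miR-486 (0.57 ± 0.13). The others, miR-451 at 0.57 ± 0.27 and miR-144 at 0.40 ± 0.15, did not pass. The summed erythroid level was 102.6 to 860.1 CPM in Control and 426.1 to 1111 CPM in ICH, higher in 9 of 10 pairs. In the myeloid list 0 of 4 tested members passed (edgeR with the block), 0 had an unadjusted p under 0.05, and the summed level was 12293 to 21576 CPM in Control and 13090.4 to 20148 CPM in ICH, higher in 4 of 10 pairs. miR-223, the myeloid member with the clearest lineage link, has no entry in the pig-reference table used here. In the human-reference counts 3 of 7 tested myeloid members rose and 0 fell, where 13.1% of all miRNAs rose. These were miR-223-5p, at 0.82 ± 0.12 on the log2 scale (SE), miR-27a-5p at 0.73 ± 0.11 and miR-223-3p at 0.63 ± 0.15. The other 4 did not pass. They were miR-24-2-5p at 0.19 ± 0.10, miR-24-3p at 0.11 ± 0.080, miR-27a-3p at 0.04 ± 0.087 and miR-23a-3p at -0.04 ± 0.087. The summed level of the 7 was 13250.0 to 22888 CPM in Control and 14850.3 to 22758 CPM in ICH, higher in 5 of 10 pairs. Of the other lists in the human-reference counts, 4 of 11 tested lymphocyte members fell and 0 rose, where 6.12% of all miRNAs fell. In the erythroid list 2 of 3 rose and in the platelet list 1 of 9, with 0 falls in both. The 3 erythroid entries here were miR-144-3p and miR-486-5p, which rose, and miR-144-5p, which did not pass. No miR-451 entry was among them, so they are not the same set as in the pig-reference list. No tested member of these lists was at 0 over the libraries. Their part in the values of miR-28 and miR-151 was not tested.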

How the data were processed

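Each deposited count table gives whole-number reads for every miRNA in every library, counted once with pig and once with human miRNAs, and a filtered copy of each was deposited too. The authors' RPM values are filtered reads scaled so that each library sums to 1e6, judged from the deposited values. Tools named in the submitters' processing notes are bcl2fastq, FastQC and Bowtie, and the builds named are Sscrofa11.1, hg38 and GRCh38. How reads were counted, joined and filtered is not given in the sources used here. Per the labels, 500 ng of RNA went into each NEBNext small RNA library.

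Unfiltered counts were fitted with edgeR 4.0.16 in R 4.3.3 (filterByExpr, TMM, robust quasi-likelihood), with the replicate number as a block and Benjamini-Hochberg adjustment across every miRNA tested. DESeq2 1.42.0 and limma 3.58.1 were alternatives. Each edgeR standard error is the size of the log2 fold change divided by the square root of its F statistic. The DESeq2 and limma fits used the standard errors of those tools. Within-library ratios and summed levels used CPM from library totals, with 1 CPM added for ratios. Log2 CPM used a prior count of 2, and correlations 100000 resamples (two-sided). No other columns of values were used. On simulated counts the blocked fit recovered 92.5% (pig reference, 184 miRNAs) and 95% (human reference, 249 miRNAs) of 40 changes of 1.5-fold, with 0% and 5% false calls. These changes were larger than those of the entries described here. They were placed only in miRNAs above a minimum mean count, with the same dispersion for every miRNA. The recovery and false calls therefore do not carry over to changes of the size seen here.

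The series' design text describes 2 draws, before ICH and 6 h later. Deviations from the group mean correlated between the libraries that share a number (0.129 to 0.768 with pig miRNAs, all over the preset 0.1). Between Control and ICH libraries of different numbers the median correlation was -0.065. These correlations do not show that the libraries of every number came from the same animal. The p values measure the spread of the change between replicate numbers. Between libraries of 1 group the smallest chi-square per degree of freedom was 25.3 (pig reference), so none agreed within sampling noise.

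The members, lists and rules were chosen with earlier results of these data known. The text names the 8 members, miR-708 and miR-151b, the 3 most alike miRNAs per arm, all tested pig-reference platelet members and all tested erythroid members. All tested pig-reference lymphocyte and human-reference myeloid members are named too, called or not. The planned sequence comparison was not made. Reads without molecular identifiers can be copies of 1 molecule, so counting errors cover counting only. Figures were drawn with matplotlib 3.10.9.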

Additional observations from a re-analysis of the deposited data

Results flagged for a closer look

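Dixon's test at its 95% critical value was applied to 32 groups of 10 libraries (each of the 8 entries, and the 4 ratios in each reference, per group). It marked 3 of them, where chance marks about 1 group in 20. For miR-151-5p the lowest Control library was replicate 10, at 5.91 log2 CPM, with the rest of the group at 6.47 to 7.01. The same library was lowest for the human-reference entry miR-151a-5p@, at 5.96 with the rest at 6.45 to 6.99, from largely the same reads. Without replicate number 10 the blocked log2 fold change of miR-151-5p was -0.45. For miR-28-5p the highest ICH library was replicate 6, at 9.98 log2 CPM, with the rest at 8.95 to 9.46. Without that number the log2 fold change of miR-28-5p was -0.17.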

How the results depend on the processing

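Under all 21 alternatives run per arm, both arms of miR-151 kept values below 0 in both tables, and no arm of miR-28 passed the threshold. In 1 of these the 5p arms of both hairpins share the value of their summed reads. Most of those reads are miR-28-5p, so it is not a value of miR-151-5p itself. With no replicate block, miR-151-5p was -0.44, miR-151-3p -0.28 and miR-151a-5p@ -0.39, and the numbers of falling entries were 0 (pig) and 0 (human). miR-151-3p also missed the threshold under DESeq2 size factors (-0.25), no filter on low counts (-0.23), the filtered deposited counts (-0.23) and DESeq2 without the block (-0.26, chosen after seeing the data), each leaving 1 falling entry. Upper-quartile scaling gave -0.32 and -0.15 for the pig-reference arms of miR-151, with 0 falling entries. With the 5p counts summed the values were -0.14 (pig) and -0.11 (human). Human-reference miR-151a-3p passed under library totals (-0.31), upper-quartile scaling (-0.32) and DESeq2 with replicate block (-0.24), giving 2 falling entries each.

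Signs turned for miR-28-5p under upper-quartile scaling (0.014), for pig-reference miR-28-3p under library totals (-0.0063) and deposited RPM (-0.0094), and for human-reference miR-28-3p under library totals (-0.0022), upper-quartile scaling (-0.0090) and deposited RPM (-0.0043). Leaving out each replicate number in turn gave -0.47 to -0.32 for miR-151-5p, -0.31 to -0.23 for miR-151-3p with 1 to 2 falling entries, -0.44 to -0.36 for miR-151a-5p@ and -0.29 to -0.21 for miR-151a-3p with 1 to 2, which passed only without number 1 (-0.29). The numbers of rising and falling pig-reference miRNAs, 21 and 18, became 35 and 9 under upper-quartile scaling, and 16 and 20 under library totals. The human-reference numbers, 32 and 15, became 15 and 24 under library totals, 18 and 29 under upper-quartile scaling, and 17 and 22 with deposited RPM. Without number 4, 35 pig-reference miRNAs rose and 28 human-reference miRNAs fell, and 19 and 20 human-reference miRNAs rose without numbers 6 and 9. The cause was not tested. Depth limits miR-151-5p most.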
